A study of Mus musculus with 20 samples.

Results

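The postsynaptic scaffold genes were 10 genes of 3 families, all found among the 24411 genes of the deposited tables by their symbols: Dlg1, Dlg2, Dlg3 and Dlg4 of the membrane-associated guanylate kinases (MAGUKs), Shank1, Shank2 and Shank3, and Homer1, Homer2 and Homer3. They were followed in RNA-seq of the mouse cochlea at P7 and P22 (postnatal days 7 and 22), in Bai1 tm2b/+ controls and their Bai1 tm2b/tm2b littermates on the C57BL/6N background, with mice of both sexes in the study. The tm2b allele lacks exons 3 and 4 of Adgrb1, the gene of the adhesion receptor BAI1, and carries a lacZ cassette in their place. Controls therefore carry 1 copy of the allele, no wild-type library was included, and every library is a pool, of 4 mice according to the labels. The tissue was the sensory epithelium with the spiral ganglion neurons (SGNs). There were 6 libraries at P22 (3 per genotype) and 14 at P7 (7 per genotype), the latter in 2 dissection batches. Replicates 5 to 7 at P7 and all P22 libraries hold estimated counts, and replicates 1 to 4 at P7 hold whole numbers that behave as rounded TPM (transcript abundance scaled to a fixed total per library).

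At an excitatory synapse the scaffold proteins hold receptors opposite the release site. MAGUKs carry PDZ domains, which bind the tails of glutamate receptors and of their partners, and a guanylate kinase-like domain, which binds the Dlgap proteins. Shank proteins bind Dlgap proteins below the MAGUK layer and reach the actin cytoskeleton, and Homer proteins tie Shank to metabotropic glutamate receptors, IP3 receptors and ryanodine receptors. Dlg4 encodes PSD-95, Dlg1 encodes SAP97, Dlg2 encodes PSD-93 and Dlg3 encodes SAP102. In the cochlea, the paper names PSD-95, Shank1 and Homer among the proteins of the afferent terminals that SGNs form on inner hair cells. BAI1 ends in a PDZ-binding motif and is a known binding partner of PSD-95.

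In the GENCODE vM21 annotation of GRCm38 (mm10), Dlg4 lies on the plus strand of chromosome 11 from 70016942 to 70047522, Dlg1 on chromosome 16 from 31663443 to 31875129 and Dlg2 on chromosome 7 from 90476672 to 92449247. Shank1 lies on chromosome 7 from 44310253 to 44360572, Homer1 on chromosome 13 from 93299635 to 93405129 and Homer3 on chromosome 8 from 70282827 to 70294361, each on the plus strand. Values were given per gene, so that the short and long forms of Homer1, among its 12 annotated transcripts, cannot be told apart. Of the exon bases of Homer3, 25.4% overlap Ddx49 on the opposite strand, and the sources do not state whether counting used strand. The overlap was at most 4.16% for the other 9 genes.

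RefSeq promoters of 4 genes are shown (build GRCm38.p6, 250 bases before to 50 after the start, written 5′ to 3′ on the plus strand). Dlg1 stood above Dlg2 at P7 and below it at P22. Dlg4 had the highest mean level per kilobase at P22, overlapping Dlg2 in the controls, and Homer1 has a form induced by activity. Capitals mark matches to a GC box (GGGCGG) or to TGACG, the core of the cAMP response element, on either strand, and the Dlg2 window holds neither. Several starts are annotated per gene, and which of them these tissues used was not measured.
Dlg1 promoter, chr16:31663685-31663984: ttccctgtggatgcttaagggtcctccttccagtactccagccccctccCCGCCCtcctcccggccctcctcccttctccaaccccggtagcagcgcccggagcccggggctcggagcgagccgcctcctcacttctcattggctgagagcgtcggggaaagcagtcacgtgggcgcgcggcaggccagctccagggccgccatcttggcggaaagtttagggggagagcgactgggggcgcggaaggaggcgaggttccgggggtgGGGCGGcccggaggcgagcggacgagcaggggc
Dlg2 promoter, chr7:91090536-91090835: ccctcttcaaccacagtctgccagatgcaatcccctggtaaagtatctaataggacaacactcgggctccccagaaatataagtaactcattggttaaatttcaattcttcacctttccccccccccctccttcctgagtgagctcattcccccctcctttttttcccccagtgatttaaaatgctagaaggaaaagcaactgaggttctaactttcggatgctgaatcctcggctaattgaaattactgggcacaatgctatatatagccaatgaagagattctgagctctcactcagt
Dlg4 promoter, chr11:70023732-70024031: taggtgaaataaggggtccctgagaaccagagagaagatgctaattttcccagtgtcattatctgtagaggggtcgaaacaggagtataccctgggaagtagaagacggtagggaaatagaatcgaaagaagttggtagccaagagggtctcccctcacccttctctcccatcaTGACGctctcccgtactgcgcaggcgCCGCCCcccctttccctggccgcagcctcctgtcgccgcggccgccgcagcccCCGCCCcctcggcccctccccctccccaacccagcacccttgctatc
Homer1 promoter, chr13:93303507-93303806: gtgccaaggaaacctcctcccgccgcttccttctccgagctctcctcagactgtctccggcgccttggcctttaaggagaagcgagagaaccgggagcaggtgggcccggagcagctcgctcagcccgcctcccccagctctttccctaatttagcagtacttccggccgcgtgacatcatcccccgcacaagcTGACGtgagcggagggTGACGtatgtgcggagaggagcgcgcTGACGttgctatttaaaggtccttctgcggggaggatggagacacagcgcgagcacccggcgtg
The table held 18 promoters for 8 of the 10 genes, without an entry for Shank1 and Shank2. TGACG stood in 3 of the 18 windows, those of Dlg3, Dlg4 and Homer1, with 3 matches in the Homer1 window, and in 20.8% of all 32851 promoters. The whole element TGACGTCA was in none of the 18 windows and in 1.79% of all promoters. The GC box was found in 7 of the 18 windows, for 6 genes, and in 35.7% of all promoters, and the Dlg2 windows held none. An E box (CACGTG) was found in 2 of the 18 windows, both of Dlg1, and TATAAA in 3, of Dlg1, Dlg2 and Homer2, against 7.15% and 13.6% of all promoters. These are matches of letters and not measured sites.

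The libraries in counts held 31108542 to 58807162 estimated counts each. The lowest deposited value of a scaffold gene was 111 counts (Shank2) and that of any of the other 9 was 652 (Homer1). Adgrb1 itself was at 154, 152 and 167 CPM (counts scaled to library size, with TMM factors over the 12 libraries) in the P22 controls and at 103, 100 and 105 CPM in the P22 Bai1 tm2b/tm2b libraries, a log2 fold change of -0.61 (SE 0.0585, adjusted p = 0.000602, edgeR). In the P7 counts it was at 32.2, 56.8 and 36.1 CPM against 25.7, 21.5 and 31.2 CPM, also without overlap (log2 fold change -0.64, SE 0.227, adjusted p = 0.894). With 1 library left out, that log2 fold change ran from -0.78 to -0.36. Across the P7 batch in rounded TPM, Adgrb1 was at 10, 12, 8 and 7 against 9, 9, 10 and 12, so that the gene total did not separate the labels there, and these libraries are named by their labels. Gene totals also count transcripts that start after the deleted exons. All 12 neuron markers, the 11 hair cell markers measured and all 9 supporting cell markers were detected in every group of libraries. In contrast, 9 markers of brain neurons summed to at most 10.2 CPM at P22. In the P7 counts they summed to 28.04 to 35.7 CPM in the controls and to 25.7 to 42.6 CPM in the Bai1 tm2b/tm2b libraries.

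The order of the scaffold genes was set by length-adjusted levels. In the P7 control libraries in rounded TPM, Dlg1 (41.8 ± 4.1, SD, n = 4) and Dlg4 (41.3 ± 4.3) stood highest and overlapped. Homer3 (25.8 ± 0.50) and Dlg3 (20 ± 1.4) followed, each without overlap with its neighbours. Homer1 (10.3 ± 0.96), Dlg2 (10 ± 1.8), Homer2 (8.25 ± 0.50), Shank1 (6.75 ± 0.96) and Shank3 (6.50 ± 1.0) formed a run in which each overlapped the next. Shank2 was lowest at 2.75 ± 0.50 TPM.

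At P22 the order was given by CPM per kilobase of the longest annotated coding transcript, a coarser measure because the transcripts in use are unknown. Among the controls Dlg4 (33.5 ± 1.1, SD, n = 3) and Dlg2 (30.7 ± 3.9) overlapped at the top, above Shank1 (14.1 ± 0.81), Homer3 (10.9 ± 0.46), Dlg1 (10.1 ± 0.063) and Dlg3 (7.55 ± 0.22), which did not overlap with one another. Shank3 (4.35 ± 0.30), Homer1 (4.00 ± 0.37) and Homer2 (3.99 ± 0.75) overlapped, and Shank2 was again lowest at 0.622 ± 0.081 CPM per kilobase. In the P22 Bai1 tm2b/tm2b libraries Dlg4 and Dlg2 again held the first and second place, and Dlg1 stood at 12.3 ± 1.0, overlapping Shank1 at 11.96 ± 0.41.

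**Figure D1:**
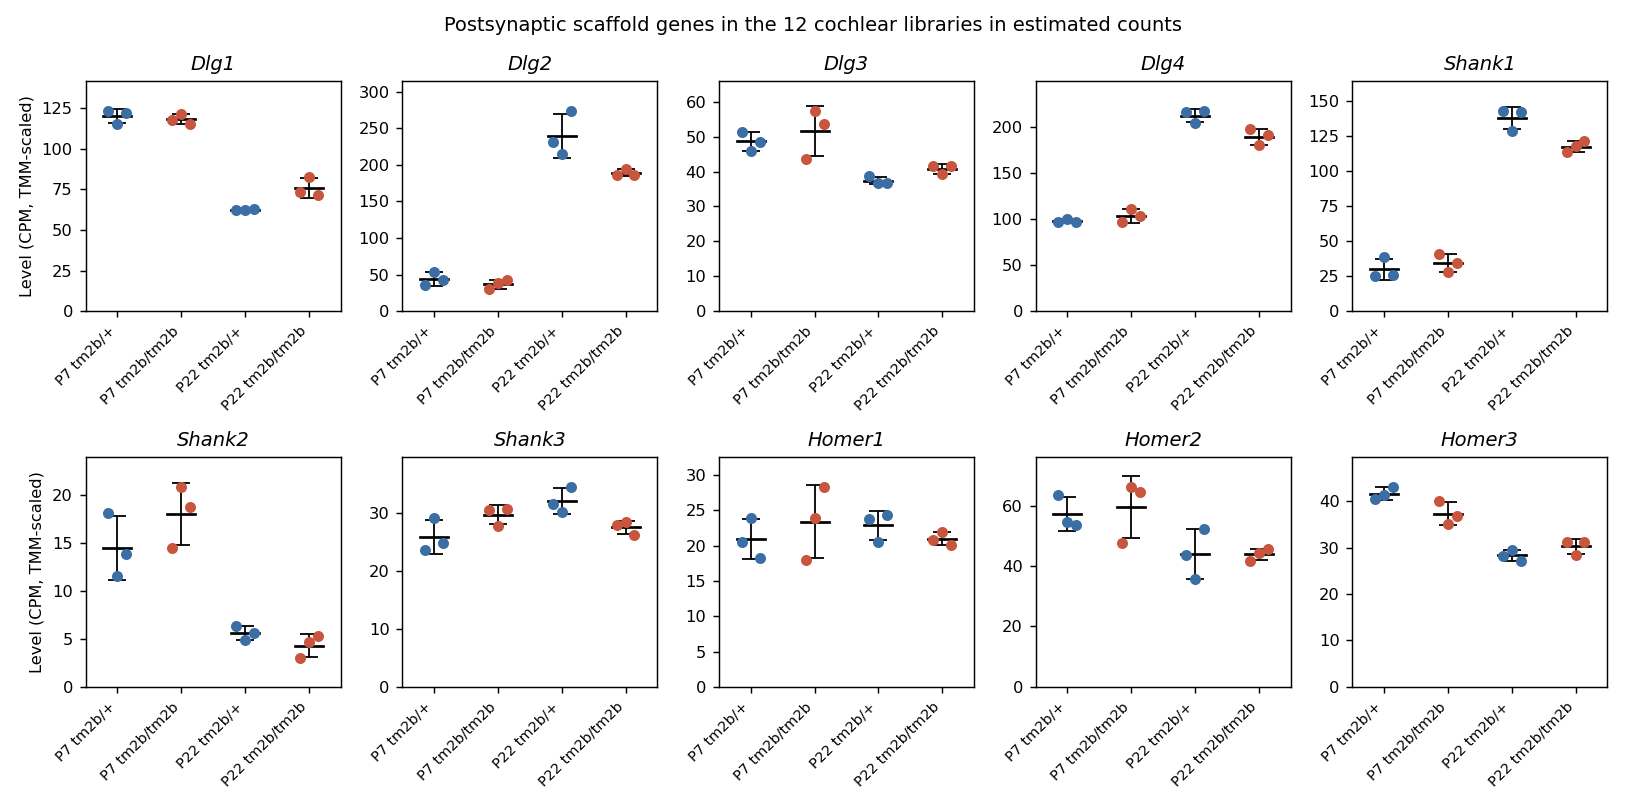
Levels of the 10 scaffold genes (vertical axes, CPM after TMM scaling, each from 0) in the 12 libraries in estimated counts, by age and genotype. Points are libraries, blue for Bai1 tm2b/+ and red for Bai1 tm2b/tm2b, and bars give the mean ± SD (n = 3). Dlg2, Dlg4 and Shank1 stood higher at P22 than at P7 in both genotypes, and Dlg1 and Shank2 lower.

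Between genotypes at P22, 3 of the 10 genes passed the test, by differences of modest size. Dlg1 was higher in Bai1 tm2b/tm2b libraries, and Dlg2 and Shank1 were lower. None reached the log2 fold change of 0.5 that a call also required, and called genes made up 1.74% (higher) and 1.41% (lower) of the 15443 genes tested. The share that passed at an adjusted p under 0.05 was 5.04% higher and 7.28% lower among all genes tested, 12.3% in all. The 10 log2 fold changes ran from -0.37 to 0.29 with a median of -0.14, against a median of 0.01 over all genes tested. In 6 of the 10 genes the libraries of the genotypes did not overlap, against 33.7% of all genes tested.

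Dlg1 (SAP97), a MAGUK that traffics AMPA receptor subunits, was at 62.0, 62.3 and 62.7 CPM in the controls and at 73.4, 82.8 and 71.2 CPM in Bai1 tm2b/tm2b cochleae. All 3 of the latter lay above all controls, a log2 fold change of 0.29 (SE 0.068, adjusted p = 0.0220, edgeR). Dlg2 (PSD-93) was at 230.9, 215 and 273 CPM against 186, 195 and 186 CPM. All Bai1 tm2b/tm2b values lay under the lowest control, and the log2 fold change was -0.33 (SE 0.081, adjusted p = 0.0252, edgeR). Dlg3 (SAP102), the MAGUK of immature synapses, was at 38.7, 36.7 and 36.8 CPM against 41.5, 39.2 and 41.6 CPM. The groups were apart, but the log2 fold change of 0.13 did not pass (95% interval -0.01 to 0.28, adjusted p = 0.210, edgeR). Dlg4 (PSD-95), the binding partner of BAI1, was at 215, 204 and 217 CPM against 197, 180 and 191 CPM. The libraries did not overlap, and its log2 fold change of -0.16 missed the threshold (95% interval -0.28 to -0.03, unadjusted p = 0.0194, adjusted p = 0.0980, edgeR).

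The 2 abundant Shank genes both had lower values in the Bai1 tm2b/tm2b libraries at P22. Shank1 was at 143, 129 and 142 CPM in the controls and at 113, 118 and 121 CPM in Bai1 tm2b/tm2b cochleae, without overlap (log2 fold change -0.22, SE 0.062, adjusted p = 0.0401, edgeR). Shank3, the member with the best known links to autism, was at 31.5, 30.1 and 34.5 CPM against 27.9, 28.3 and 26.1 CPM. Its groups were apart too, with a log2 fold change of -0.21 that did not pass (95% interval -0.38 to -0.04, adjusted p = 0.0953, edgeR). Shank2 was at 6.29, 4.83 and 5.64 CPM against 3.01, 4.64 and 5.27 CPM. Its groups overlapped, and the interval of its log2 fold change was wide (-0.83 to 0.10).

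The Homer genes did not pass at P22. Homer1, whose short form is induced by activity and uncouples the long forms, was at 23.8, 20.5 and 24.3 CPM in the controls and at 20.8, 21.9 and 20.1 CPM in Bai1 tm2b/tm2b cochleae (log2 fold change -0.12, 95% interval -0.31 to 0.08). Homer2 was at 43.6, 35.7 and 52.3 CPM against 41.7, 44.3 and 45.5 CPM (0.01, -0.25 to 0.26). Homer3 was at 28.2, 29.6 and 27.2 CPM against 31.2, 28.4 and 31.2 CPM (0.11, -0.06 to 0.27). All 3 overlapped between genotypes.

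Each of the 3 passes at P22 was lost when certain single libraries were left out. The test of Dlg1 was lost without control replicate 1, control replicate 3 or Bai1 tm2b/tm2b replicate 2 (adjusted p = 0.0915, 0.0559 and 0.0570, edgeR). That of Dlg2 was lost without control replicate 1 or any one of the Bai1 tm2b/tm2b replicates (adjusted p from 0.0567 to 0.0734). Shank1 passed only without control replicate 2 (adjusted p = 0.0163) and was lost when any of the other 5 libraries was left out (highest adjusted p = 0.169). The direction of all 3 was kept in each of these fits.

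Markers of several cell types, but not of all, moved with genotype at P22. The 12 neuron markers summed to 15429 to 17488 CPM in the controls and to 11486 to 13104 CPM in Bai1 tm2b/tm2b cochleae, and 6 of the 12 fell (0 rose) at an adjusted p under 0.05 in edgeR. The exact permutation p of the sum was 0.1, the smallest that 3 against 3 libraries allow. Hair cell markers summed to 507 to 533 CPM against 639 to 744 CPM (5 of 11 rose, 0 fell), and central glia markers to 1010 to 1140 CPM against 1247 to 1920 CPM (5 of 9 rose, 0 fell). Supporting cell markers summed to 1759 to 1913 CPM against 2101 to 2296 CPM (5 of 9 rose, 1 fell). Schwann cell and myelin markers overlapped, at 21372 to 22565 CPM against 22234 to 26214 CPM (2 of 9 rose, 0 fell). Erythroid markers overlapped too, at 1410 to 2625 CPM against 1712 to 2645 CPM (1 of 6 rose, 0 fell). In bulk tissue, fewer cells of a type and less RNA per cell cannot be told apart. For the neurons, the paper counted afferent fibers in adult mice and found no significant difference between genotypes. It also found SGN somata in adults of both genotypes. RNA per neuron was not measured. The part of these markers in the differences of the scaffold genes was not tested.

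Scaling each library to the 12 neuron markers in place of TMM gave the levels relative to these transcripts. It moved the median of all genes by 0.31 on the log2 scale. Of the 12 markers, 6 were themselves lower at P22 with TMM, so a higher value on that scale need not be a rise per neuron. On that scale 5 of the 10 scaffold genes were higher and 0 lower at an adjusted p under 0.05 (edgeR): Dlg1 (log2 fold change 0.61), Dlg3 (0.44), Homer3 (0.41), Homer2 (0.33) and Dlg4 (0.16). Of all 15443 genes tested, 8560 were higher and 157 lower on that scale, so the count of scaffold genes is near that of the table. Dlg2 came to -0.014 and Shank1 to 0.092, neither of them past the threshold (adjusted p = 0.871 and 0.270, edgeR). The values of Dlg4, Shank1, Shank3 and Homer1, which were below 0 with TMM by less than that shift, were above 0 on this scale. A ratio within a library does not depend on scaling. The ratio of Dlg1 to Dlg4 counts was 0.294 ± 0.0099 in the controls and 0.402 ± 0.051 in the Bai1 tm2b/tm2b libraries at P22 (SD, n = 3), without overlap, whereas the ratios of Shank1 to Dlg4 (0.651 ± 0.017 and 0.623 ± 0.042), of Dlg2 to Dlg4 (1.13 ± 0.11 and 1.00 ± 0.072) and of Shank3 to Dlg4 (0.151 ± 0.0069 and 0.145 ± 0.011) overlapped. The first reached an exact permutation p of 0.1, the smallest possible (0.179 after adjustment over 25 tests of ratios).

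**Figure D2:**
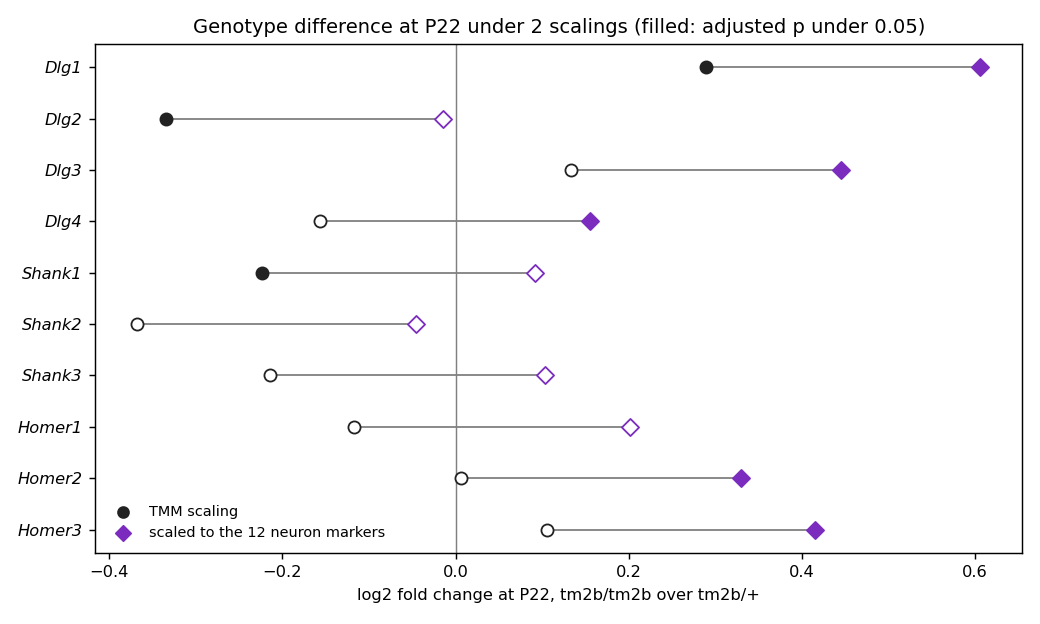
Log2 fold change of the 10 scaffold genes at P22, Bai1 tm2b/tm2b over Bai1 tm2b/+ (horizontal axis), with TMM scaling (circles) and with the libraries scaled to the 12 neuron markers (diamonds), filled where the adjusted p was under 0.05 (edgeR, n = 3 and 3). Each gene moved to the right under the second scaling, Dlg1 from 0.29 to 0.61 and Shank1 from -0.22 to 0.092.

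At P7 the libraries in counts showed no genotype difference that passed, for the scaffold genes or for any of the 16026 genes tested (0% by edgeR, with 4.76% at an unadjusted p under 0.05 and 60 genes past the adjusted threshold in DESeq2). Log2 fold changes of the 10 genes ran from -0.22 to 0.35 with a median of 0.11, and 8 of the 10 were above 0. Shank3 was the only one of the 10 at an unadjusted p under 0.05 (0.0495), at 23.6, 29.0 and 24.7 CPM in the controls and 30.5, 27.7 and 30.6 CPM in Bai1 tm2b/tm2b cochleae, which overlapped (log2 fold change 0.24, 95% interval 0.00070 to 0.47). Dlg4 was at 97.1, 99.8 and 96.8 CPM against 96.2, 111 and 103 CPM, and the interval of its log2 fold change was -0.03 to 0.26. Dlg1 lay between 115 and 123 CPM in all 6 libraries (interval -0.14 to 0.16). Dlg2 was at 35.2, 53.3 and 43.0 CPM against 29.9, 38.5 and 42.1 CPM (interval -0.61 to 0.17), with the highest value in control replicate 6, which also had the highest sum of neuron markers (3075 CPM, against 1202 to 1886 CPM in the other 5). That library held the highest control value of Dlg4, Shank1, Shank3, Homer1 and Adgrb1 as well, but not of Dlg1, Dlg3, Shank2, Homer2 or Homer3.

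For the other members the intervals in the P7 counts all held 0. Shank1 was at 24.8, 38.7 and 26.03 CPM in the controls and at 40.6, 28.2 and 34.3 CPM in Bai1 tm2b/tm2b cochleae, with a log2 fold change between -0.24 and 0.72 (95% interval). Shank2 was at 18.1, 11.50 and 13.8 CPM against 14.5, 20.8 and 18.8 CPM (-0.11 to 0.80). Homer1 was at 20.5, 23.97 and 18.3 CPM against 17.9, 23.97 and 28.3 CPM (-0.20 to 0.58). Dlg3 was at 51.3, 45.9 and 48.6 CPM against 43.5, 57.3 and 53.7 CPM (-0.12 to 0.35). Homer2 was at 63.6, 54.7 and 53.4 CPM against 47.8, 66.2 and 64.4 CPM (-0.21 to 0.38). Homer3 was the one gene of the 10 whose groups were apart, against 11.2% of all genes tested, at 40.6, 41.3 and 43.1 CPM and 40.1, 35.1 and 36.8 CPM (-0.32 to 0.08).

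The earlier P7 batch, in rounded TPM, had higher Shank1 in the libraries labelled Bai1 tm2b/tm2b. Shank1 was at 8, 7, 6 and 6 TPM in the controls and at 9, 13, 12 and 12 TPM in the libraries labelled Bai1 tm2b/tm2b, without overlap. On the log2(TPM + 1) scale the difference was 0.59 (SE 0.108, adjusted p = 0.0436, limma), and Shank1 was the 1 of 9 scaffold genes tested that was called, against 0.656% of the 11740 genes tested that were called higher (8.16% passed in either direction). Dlg2 was at 11, 12, 9 and 8 TPM against 11, 19, 18 and 17 TPM. The groups overlapped, since the lowest value of the libraries labelled Bai1 tm2b/tm2b was below the highest control, and the difference of 0.53 missed the threshold (SE 0.151, adjusted p = 0.0543, limma). It passed without Bai1 tm2b/tm2b replicate 1 (difference 0.69, adjusted p = 0.0108) and without TMM scaling (difference 0.64, adjusted p = 0.0406). Dlg4 was at 42, 47, 39 and 37 TPM against 44, 54, 49 and 57 TPM (difference 0.19, SE 0.076, adjusted p = 0.112, limma). Dlg3 was at 21, 21, 20 and 18 TPM against 22, 22, 22 and 25 TPM, apart by 1 unit of rounding (difference 0.07, adjusted p = 0.394, limma). With Shank1 these were the 2 of 9 genes whose groups did not overlap, against 14.8% of all genes tested.

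The remaining genes of that batch differed little. Dlg1, Homer1, Homer2 and Homer3 had differences from -0.02 to 0.04 and overlapped, and Shank3 was at 7, 7, 7 and 5 TPM against 7, 8, 7 and 10 TPM (difference 0.16). Shank2, at 2 to 4 TPM in all 8 libraries, was under the minimum of 5 TPM and was not tested. The call of Shank1 was lost without any one of the 6 libraries other than control replicate 1 and Bai1 tm2b/tm2b replicate 1 (highest adjusted p = 0.123, limma). It was also lost with a minimum mean of 1 TPM (adjusted p = 0.0616), with neuron scaling (difference 0.34, adjusted p = 0.193) and after removal of trends on length and GC content (difference 0.17, adjusted p = 0.221). Across genes, the difference in this batch followed transcript length with a Spearman rho of 0.60 over 11343 genes, which are not independent, against -0.22 at P22 and 0.06 in the P7 counts. The longest coding transcript of Shank1 has 9826 bases and the median gene tested 3170. The part of length in the Shank1 value was tested only by the removal of trends. Neuron markers summed to 2090 to 3365 TPM in the controls and 2704 to 3672 TPM in the libraries labelled Bai1 tm2b/tm2b (exact permutation p = 0.2), and their part was not tested beyond the neuron scaling.

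**Figure D3:**
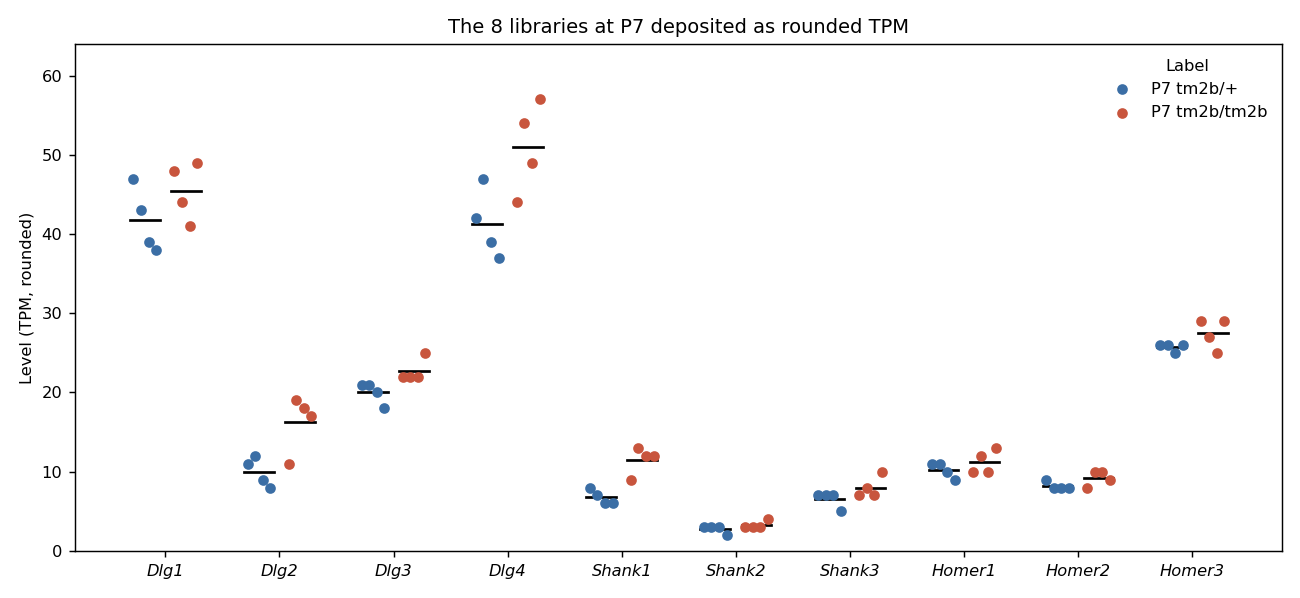
Deposited rounded TPM (vertical axis) of the 10 scaffold genes in replicates 1 to 4 of each genotype at P7, blue for Bai1 tm2b/+ and red for Bai1 tm2b/tm2b by label, with the mean of 4 as a line. The 4 red points of Shank1 lie from 9 to 13 TPM, above the controls at 6 to 8 TPM, and the other genes overlap or, for Dlg3, part by 1 TPM.

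For Shank1 the genotype difference was 0.24 in the P7 counts, which did not pass, 0.59 in the P7 rounded TPM and -0.22 at P22, or 0.092 at P22 with neuron scaling. Within the libraries in counts, the genotype difference at P22 was tested against that at P7. None of the 10 scaffold genes passed this interaction test, and 0.0306% of 16314 genes did, with 10.2% at an unadjusted p under 0.05. Shank3 had the lowest p of the 10, with a difference of log2 fold changes of -0.43 (95% interval -0.70 to -0.16, unadjusted p = 0.00496, adjusted p = 0.295, edgeR). Shank1 came to -0.44 (-0.92 to 0.03), Dlg4 to -0.25 (-0.45 to -0.05) and Dlg1 to 0.30 (0.10 to 0.49). Those of Shank2 (-0.70, -1.38 to -0.03) and Homer3 (0.24, 0.02 to 0.47) had intervals clear of 0 as well, and 5 of the 10 had an unadjusted p under 0.05. The interval of Dlg2 ran from -0.55 to 0.36.

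**Figure D4:**
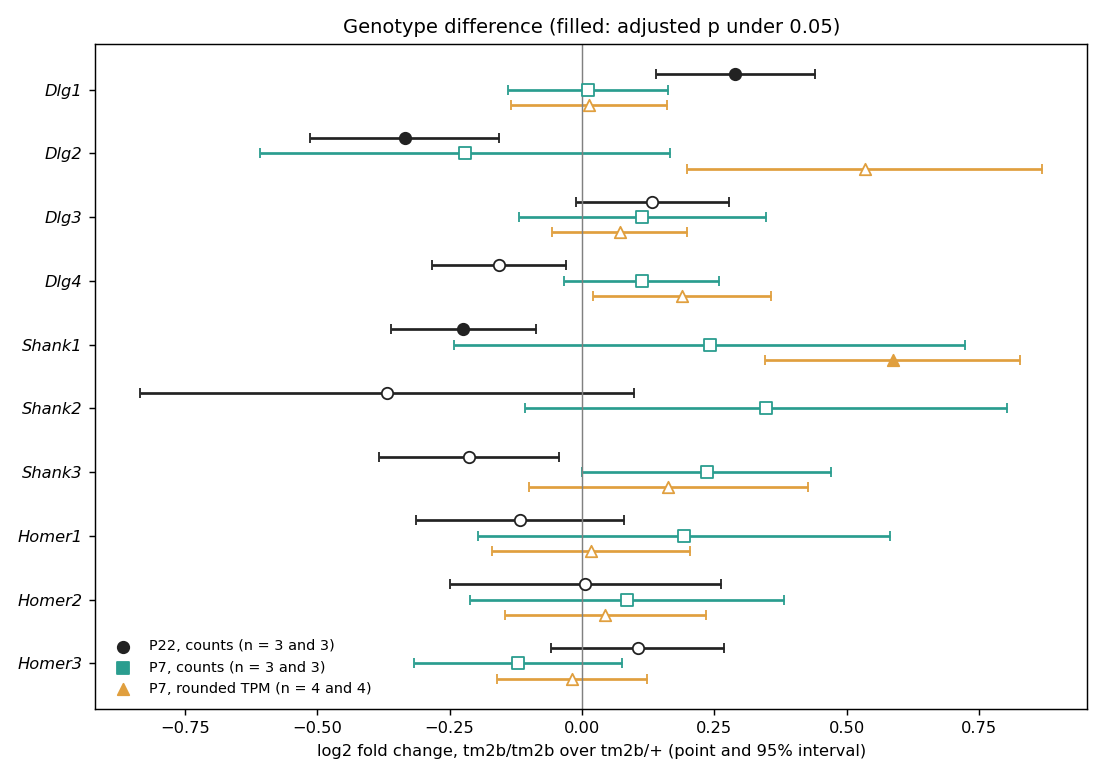
Log2 fold change of Bai1 tm2b/tm2b over Bai1 tm2b/+ (horizontal axis, points with 95% intervals) for each scaffold gene at P22 in counts (circles), P7 in counts (squares) and P7 in rounded TPM (triangles, log2(TPM + 1) scale), filled where the adjusted p was under 0.05. The filled points are Dlg1, Dlg2 and Shank1 at P22 and Shank1 in rounded TPM, and most intervals reach 0.

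Between the P7 and P22 libraries in counts Dlg2, Shank1, Dlg4, Dlg1 and Shank2 differed by more than any scaffold gene did between genotypes at P22, and the composition of the Dlg and Shank families shifted. In the controls 9 of the 10 genes passed the test (4 higher, 5 lower at P22), against 72.8% of all 16314 genes tested (34.6% higher, 38.2% lower), so the number that passed is near that of the table. In the Bai1 tm2b/tm2b libraries 8 passed (3 higher, 5 lower), against 71.8% (35.0% higher, 36.8% lower). Age, dissection batch, sequencing run and table coincide here and cannot be told apart. The neuron markers rose over the same interval, from 1482 to 3075 CPM to 15429 to 17488 CPM in the controls, with 11 of 12 rising and 1 falling. In the controls supporting cell markers went from 7556 to 9561 CPM to 1759 to 1913 CPM (3 of 9 rose, 6 fell), hair cell markers from 696 to 1049 CPM to 507 to 533 CPM (1 of 11 rose, 8 fell) and Schwann cell and myelin markers from 9397 to 16113 CPM to 21372 to 22565 CPM (6 of 9 rose, 0 fell). Brain neuron markers went from 28.04 to 35.7 CPM to 5.52 to 10.2 CPM (0 of 8 rose, 4 fell). The part of these markers in the changes below was not tested beyond the neuron scaling.

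Dlg2 and Shank1 rose most. Dlg2 went from 43.8 ± 9.1 CPM to 239.8 ± 30.2 CPM in the controls (SD, n = 3), a 5.49-fold rise (log2 fold change 2.46, SE 0.155), and from 36.8 ± 6.3 CPM to 189 ± 4.8 CPM in Bai1 tm2b/tm2b cochleae, a 5.12-fold rise. Shank1 went from 29.8 ± 7.7 CPM to 138 ± 7.9 CPM in the controls (4.64-fold, log2 fold change 2.21, SE 0.161) and from 34.3 ± 6.2 CPM to 118 ± 4.0 CPM in Bai1 tm2b/tm2b cochleae (3.41-fold). Dlg4 rose from 97.9 ± 1.6 CPM to 212 ± 7.0 CPM in the controls (2.17-fold, log2 fold change 1.12, SE 0.066) and 1.82-fold in the Bai1 tm2b/tm2b libraries. Shank3 passed in the controls, from 25.8 ± 2.9 CPM to 32.0 ± 2.2 CPM (1.25-fold, adjusted p = 0.00621, edgeR). In the Bai1 tm2b/tm2b libraries it was at 29.6 ± 1.6 CPM and 27.5 ± 1.2 CPM (adjusted p = 0.271).

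Dlg1 and Shank2 fell most. Dlg1 went from 120.0 ± 4.2 CPM to 62.3 ± 0.39 CPM in the controls (0.522-fold, log2 fold change -0.94, SE 0.065) and from 118 ± 3.1 CPM to 75.8 ± 6.2 CPM in Bai1 tm2b/tm2b cochleae (0.640-fold). Shank2 fell from 14.5 ± 3.4 CPM to 5.59 ± 0.73 CPM in the controls (0.388-fold, SE of the log2 fold change 0.220) and from 18.03 ± 3.2 CPM to 4.31 ± 1.2 CPM in Bai1 tm2b/tm2b cochleae (0.239-fold). Dlg3 fell to 0.773-fold and Homer2 to 0.770-fold in the controls, and Homer3 to 0.683-fold, from 41.7 ± 1.3 CPM to 28.3 ± 1.2 CPM. Homer1 was at 20.9 ± 2.9 CPM and 22.9 ± 2.1 CPM in the controls and did not pass (95% interval of the log2 fold change -0.18 to 0.45). The pass of Homer2 in the controls was lost in 3 of the 12 fits that left out a library (highest adjusted p = 0.130, edgeR).

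Relative to the 12 neuron markers no scaffold gene was higher at P22. On the log2 scale, that scaling moved the median of all genes by -2.59 in the controls and by -2.65 in the Bai1 tm2b/tm2b libraries. Of the 10 scaffold genes, 8 in the controls and 9 in the Bai1 tm2b/tm2b libraries were lower and 0 higher at an adjusted p under 0.05 (edgeR). Of all 16314 genes tested 15206 and 15396 were lower on that scale, so these counts are near those of the table. In the controls Dlg2 came to -0.074 (adjusted p = 0.773), Shank1 to -0.30 (adjusted p = 0.293) and Dlg4 to -1.47, so Dlg2 and Shank1 kept closest to the neuron markers.

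Within the Dlg family, the share of summed CPM per kilobase taken by Dlg1 went from 38.7% ± 1.5 at P7 to 12.4% ± 0.69 at P22 in the controls (SD, n = 3). That of Dlg2 went from 11.1% ± 2.3 to 37.4% ± 2.5 and that of Dlg4 from 30.7% ± 0.42 to 41.0% ± 1.3. At P22 the Bai1 tm2b/tm2b libraries had a Dlg1 share of 16.5% ± 1.3 and a Dlg2 share of 32.4% ± 0.86. The ratio of Dlg1 to Dlg4 counts fell from 1.23 ± 0.062 to 0.294 ± 0.0099 in the controls, without overlap (exact permutation p = 0.1, the smallest possible, 0.179 after adjustment over 25 tests). In the Shank family, Shank1 took 36.9% ± 5.4 at P7 and 73.9% ± 0.67 at P22 in the controls, and 74.0% ± 0.86 in the P22 Bai1 tm2b/tm2b libraries. Shank3 went from 43.0% ± 1.6 to 22.9% ± 0.89 and Shank2 from 20.1% ± 6.0 to 3.26% ± 0.29 in the controls. The mean share of Shank3 was the largest in the P7 controls in counts, overlapping that of Shank1. In the Homer family Homer3 kept the largest share, at 64.3% ± 2.6 at P7 and 57.7% ± 4.4 at P22 in the controls and at 60.2% ± 6.1 and 60.2% ± 1.9 in the Bai1 tm2b/tm2b libraries. Shares depend on the transcript length taken for each gene. By rounded TPM, Homer3 took 58.2% ± 1.6 and Dlg1 37.0% ± 1.7 of their families in the P7 controls (n = 4). Shank1 there had a larger mean share than Shank3, at 42.3% ± 3.8 and 40.6% ± 2.4, with overlap. In the libraries labelled Bai1 tm2b/tm2b of that batch they took 50.6% ± 4.4 and 35.1% ± 3.1.

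**Figure D5:**
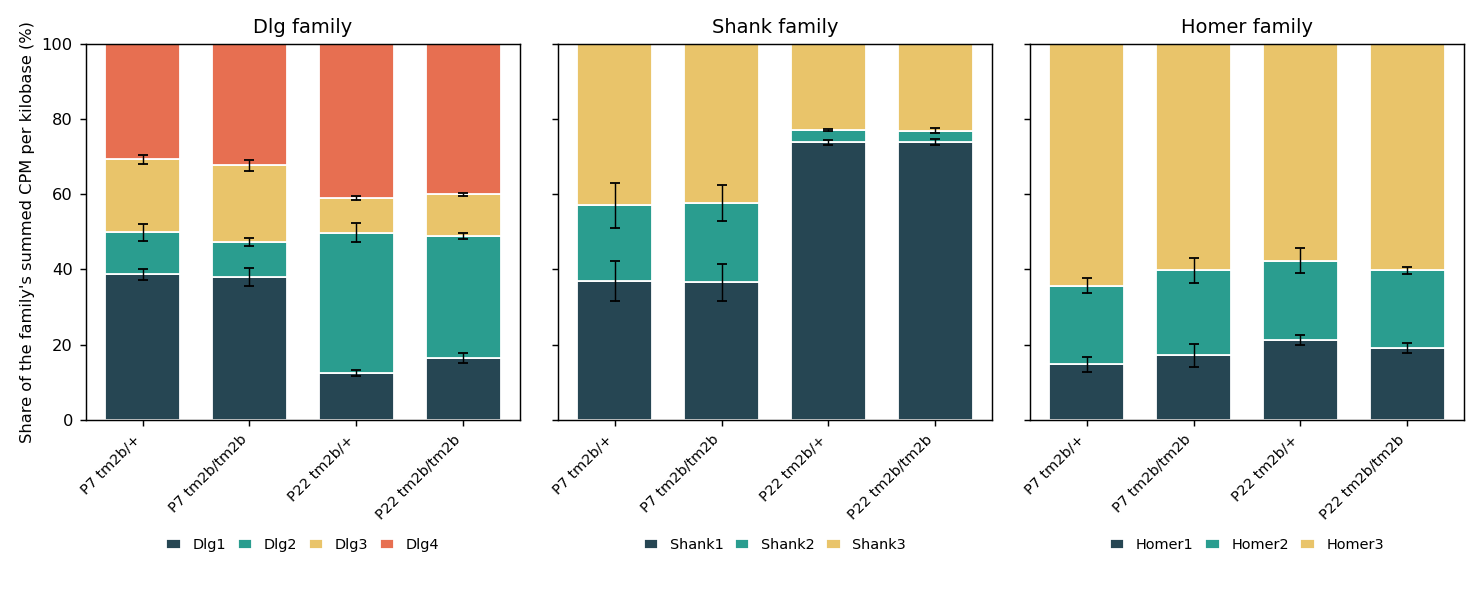
Share of each family's summed CPM per kilobase (vertical axis, percent, mean of 3 libraries, stacked from 0 to 100) taken by its members at P7 and P22 in each genotype. Error bars give the SD of the share that ends there. Between the ages the shares of Dlg2, Dlg4 and Shank1 grew and those of Dlg1, Dlg3, Shank2 and Shank3 shrank, and Homer3 kept the largest share of its family throughout.

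Genes whose products bind these scaffolds were read from 5 lists. At P22, 7.28% of all 15443 genes tested passed as lower in Bai1 tm2b/tm2b libraries and 5.04% as higher. Among 17 genes of guanylate kinase partners, 2 were lower and 0 higher at P22 in Bai1 tm2b/tm2b libraries. Dlgap3, which links PSD-95 to Shank, was called, at 58.5 ± 4.0 CPM in the controls and 38.3 ± 4.9 CPM in Bai1 tm2b/tm2b cochleae (log2 fold change -0.61, SE 0.094, adjusted p = 0.00455, edgeR), and Dlgap1 was at 110.4 ± 8.1 and 91.6 ± 6.0 CPM (-0.26). Of 9 receptor and partner genes with PDZ-binding tails that were tested, 3 were lower and 0 higher, Adgrb1 included. Cacng2, the AMPA receptor auxiliary subunit stargazin, was at 38.8 ± 4.6 and 24.5 ± 1.3 CPM (-0.66, SE 0.092, adjusted p = 0.00303, edgeR), and Grin2d, an NMDA receptor subunit, at 12.4 ± 0.24 and 9.53 ± 0.71 CPM (-0.37).

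Among the 11 ligands of Homer, 3 were lower and 0 higher at P22, with Trpc1, a cation channel, at -0.40, Ryr2, a ryanodine receptor, at -0.39 and Agap2 at -0.26 on the log2 scale. Of 9 other receptor scaffolds, Grip2 (-0.34) and Nsf (-0.28), the ATPase of SNARE recycling that also binds AMPA receptors, were lower and 0 higher. Among 12 other MAGUKs, 2 were higher and 0 lower, and Mpp3 had the largest genotype difference of the genes named at P22, at 5.67 ± 0.75 CPM in the controls and 12.2 ± 0.97 CPM in Bai1 tm2b/tm2b cochleae (log2 fold change 1.12, SE 0.133, adjusted p = 0.00133, edgeR). Magi1 was at 52.7 ± 0.89 and 61.8 ± 3.2 CPM (0.24). The medians of the 5 lists ran from -0.15 to 0.06. In the neuron scaling Dlgap1, Agap2 and Nsf turned to 0.058, 0.053 and 0.032. Grip2, Ryr2, Trpc1 and Grin2d came to -0.024, -0.066, -0.089 and -0.056 and did not pass (adjusted p from 0.492 to 0.816, edgeR). Dlgap3 (-0.29) and Cacng2 (-0.34) were still lower on that scale and passed. Dlgap3, Cacng2 and Mpp3 passed in all 6 fits that left out a library. Grin2d passed in none of them (adjusted p from 0.0610 to 0.136, edgeR), and Trpc1, Ryr2, Agap2 and Magi1 were each lost in 5 of the 6 and Dlgap1, Grip2 and Nsf each in 4 of the 6 (highest adjusted p from 0.0854 for Nsf to 0.146 for Ryr2). In the P7 counts 0 genes of the 5 lists passed in edgeR. In the P7 rounded TPM, where lists were tested only in part, 2 of 11 guanylate kinase partners were higher and 1 lower. Also higher were 2 of 12 other MAGUKs, 1 of 6 Homer ligands and 2 of 4 genes with PDZ-binding tails. Of the receptor scaffolds 0 of 8 were higher, and 0 genes were lower in these 4 lists. Of all 11740 genes tested in that batch, 8.16% passed in either direction.

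With age, in the controls, the binding partners moved in both directions. For all 5 lists the counts stand against 34.6% of all 16314 genes tested that rose and 38.2% that fell. Among the 17 guanylate kinase partners 8 rose and 6 fell, Nos1, the neuronal nitric oxide synthase that binds PSD-95, from 24.1 ± 5.5 to 500.4 ± 55.7 CPM, Dlgap3 from 13.01 ± 4.9 to 58.5 ± 4.0 CPM, Dlgap1 from 36.7 ± 9.0 to 110.4 ± 8.1 CPM and Dlgap2 from 0.459 ± 0.29 to 2.69 ± 0.38 CPM. Of the 11 Homer ligands 5 rose and 5 fell. Grm5, the group I metabotropic receptor that Homer binds, fell from 3.76 ± 1.5 to 0.396 ± 0.013 CPM and Ryr1, the muscle ryanodine receptor, from 21.3 ± 7.0 to 0.204 ± 0.090 CPM, whereas Ryr2 rose from 5.82 ± 0.94 to 48.2 ± 7.1 CPM and Dnm3, a dynamin of the postsynaptic endocytic zone, from 32.8 ± 5.8 to 241 ± 34.1 CPM.

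Among the 11 genes with PDZ-binding tails 5 rose and 4 fell. Cacng2 rose from 4.43 ± 1.7 to 38.8 ± 4.6 CPM and Grin2c from 1.21 ± 0.086 to 11.1 ± 0.22 CPM, and Erbb4, a neuregulin receptor, fell from 5.92 ± 0.92 to 0.578 ± 0.20 CPM. Grin2a passed on the lower side, from 0.490 ± 0.14 CPM at P7 to 0 counts in all 6 P22 libraries. Of the 9 receptor scaffolds 6 rose and 2 fell, with Nsf from 120.5 ± 31.8 to 809.8 ± 60.9 CPM, Grip2 from 7.40 ± 0.73 to 33.6 ± 2.2 CPM, Lin7b from 2.67 ± 0.58 to 10.2 ± 1.2 CPM and Lin7a from 14.5 ± 5.6 to 41.2 ± 4.8 CPM. Of the 12 other MAGUKs 2 rose and 5 fell, with Dlg5 (100.8 ± 9.5 to 51.01 ± 3.2 CPM), Cask (102 ± 4.5 to 61.4 ± 3.1 CPM) and Mpp3 (10.8 ± 3.2 to 5.67 ± 0.75 CPM) lower and Magi2 (35.1 ± 5.9 to 57.8 ± 6.2 CPM) higher. Under the neuron scaling Dlgap1, Dlgap3, Magi2, Grip2, Lin7a and Lin7b turned to negative values. Nsf, Dnm3, Ryr2, Grin2c and Dlgap2 came to 0.25, 0.33, 0.48, 0.66 and 0.13 on the log2 scale. They did not pass there (adjusted p from 0.0848 to 0.809, edgeR). Nos1 (1.86) and Cacng2 (0.63) were still higher and passed.

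Across the 12 libraries in counts, after the mean of each table was subtracted, Shank1 and Shank3 had the closest pattern of any pair of scaffold genes, with a Pearson r of 0.84. The most opposed pair was Dlg1 and Dlg4 (-0.72). Among 16313 other genes, those most like Dlg4 were Bcr (0.95), Gm19461 (0.94) and Dmtn (0.93), and those most like Shank1 were Cacna1a (0.91), Cep83 (0.91) and Caskin1 (0.89). The 12 points share libraries, depth and the genotype difference at P22, and the values are descriptions.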

How the data were processed

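Poly A RNA of pooled cochleae was sequenced as paired ends. According to the methods, the authors ran the nf-core RNA pipeline on mm10 (STAR and Salmon, with DESeq2 for their tests). The annotation release, tool versions and strand setting are not given in the sources used here. The deposited values are estimated counts per gene for 12 libraries. For the other 8 the deposited values are whole numbers, treated as a score: each library sums to between 999644 and 999777, from which rounded TPM was inferred.

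Groups followed the labels. Estimated counts were rounded and tested with edgeR 4.0.16 (R 4.3.3, TMM, quasi-likelihood), with separate fits for genotype at each age and 1 fit of 12 libraries for age and interaction. Rounded TPM was tested with limma 3.58.1 on log2(TPM + 1) after TMM, where the mean reached 5 or more, which understates changes of low genes. DESeq2 1.42.0 was an alternative. P-values were adjusted by Benjamini-Hochberg over all genes. A gene passed at 0.05 and was called where the log2 fold change also exceeded 0.5 with an SE under 0.5. Scripts were tested on simulated data, in which 86.4% of genes changed 2-fold were recovered at P22 (15336 genes, 9.47% of calls false), 71.4% in the P7 counts (15916 genes, 7.89% false), 62.9% for the interaction (16107 genes, 9.49% false) and 93.2% in rounded TPM (11680 genes, 1.67% false). Smaller changes, such as those of the scaffold genes between genotypes at P22, were not simulated. Nothing in the labels says how mice were spread over pools of different libraries beyond their replicate numbers, so p-values measure the spread between these pools.

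The scaffold genes, related lists and markers were chosen with earlier results of these data known. Named genes were all scaffold genes, Adgrb1, up to 4 genes per related list with the largest log2 fold change among those that passed (P22 genotype, and age in controls), and the 3 genes with the highest correlation with Dlg4, Shank1 and Homer1. Those for Homer1 are not reported here.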

Additional observations from a re-analysis of the deposited data

Results flagged for a closer look

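In the rounded TPM of the P7 batch, 6 groups of 4 libraries held a value whose gap to the nearest other took up the whole range (ratio 1, above Dixon's limit at 95%). These were Shank2, Shank3, Homer2 and Homer3 in the controls and Dlg3 and Shank2 in the libraries labelled Bai1 tm2b/tm2b. In each of them the other 3 values were tied whole numbers, and chance flags about 1 in 20 groups even without ties.

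Shank1 was higher in all 4 libraries labelled Bai1 tm2b/tm2b of that batch (difference 0.59 on the log2(TPM + 1) scale) and lower in all 3 Bai1 tm2b/tm2b libraries at P22 (log2 fold change -0.22). The difference between these 2 sets, which are in different units, was not tested.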

How the results depend on the processing

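At P22, DESeq2, RLE size factors and no filter left Dlg1 as the 1 scaffold gene that passed higher and 2 lower. Scaling to the neuron markers gave 5 higher and 0 lower, with 8717 genes in all against 1904 and a median shift of 0.31 for all genes. It turned Dlg4 to 0.16, Shank1 to 0.092, Shank3 to 0.10, Homer1 to 0.20, Dlgap1 to 0.058, Agap2 to 0.053 and Nsf to 0.032. Leaving out 1 library gave 0 to 1 scaffold genes higher, 0 to 2 lower and 630 to 2108 genes in all, and Homer2 ran from -0.12 to 0.15.

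In the P7 counts 60 genes passed with DESeq2 and 48 with neuron scaling, which turned Dlg2 to 0.12 and Homer3 to 0.20. Without 1 library Dlg1 ran from -0.023 to 0.043. For the interaction, 173 genes passed with DESeq2, 8 with no filter, 2 with neuron scaling and 0 to 112 without 1 library, against 5. Dlg3 turned to -0.00033 with DESeq2 and -0.0013 with RLE size factors, and Adgrb1 to -0.10 with neuron scaling. Without 1 library Adgrb1 ran from -0.24 to 0.20, Dlg2 from -0.26 to 0.036, Dlg3 from -0.072 to 0.12 and Homer2 from -0.20 to 0.080.

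In rounded TPM, 0 scaffold genes and 0 genes in all passed with a minimum mean of 1 or with length and GC trends removed. Without TMM 2 scaffold genes and 1539 genes passed (91.4% higher, against 58.6%), Homer3 turned to 0.089, and the median of all genes moved by 0.11. Neuron scaling left 0 scaffold genes and 738 genes (2.17% higher), and turned Dlg1 to -0.26, Dlg3 to -0.20, Dlg4 to -0.085, Shank3 to -0.082, Homer1 to -0.24, Homer2 to -0.21 and Adgrb1 to -0.23. With length and GC trends removed, with or without the replicate block, Dlg1 came to -0.075, Dlg3 to -0.083, Shank3 to -0.20, Homer2 to -0.18 and Adgrb1 to -0.31. Without 1 library 0 to 3 scaffold genes and 0 to 2716 genes passed, and Adgrb1 ran from -0.070 to 0.11, Dlg1 from -0.027 to 0.054, Homer1 from -0.036 to 0.059 and Homer3 from -0.058 to 0.017.

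Between ages, neuron scaling gave 0 scaffold genes higher in either genotype, with 8 lower in controls and 9 in Bai1 tm2b/tm2b libraries. In controls it turned Dlg2 to -0.074, Dlg4 to -1.47, Shank1 to -0.30, Shank3 to -2.24, Homer1 to -2.43, Adgrb1 to -0.56, Dlgap3 to -0.30, Dlgap1 to -0.92, Magi2 to -1.82, Grip2 to -0.43, Lin7b to -0.59 and Lin7a to -0.96. In Bai1 tm2b/tm2b libraries it turned Dlg2 to -0.26, Dlg4 to -1.78, Shank1 to -0.91 and Adgrb1 to -0.67. Apart from the scalings and trend removal, whose construction moves all genes, the cause of these changes was not tested.

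Libraries with the same replicate number did not deviate together (correlations from -0.23 to 0.069), so the numbers were not taken to pair them. With the replicate block, 1 scaffold gene passed lower at P22 (Shank1 missed, adjusted p = 0.0710, edgeR), and in rounded TPM 0 scaffold genes and 0 genes in all passed (Shank1 adjusted p = 0.117, limma). No paired analysis was possible for age because the P7 and P22 libraries in counts share no replicate numbers. Groups of 3 pools, rounding to whole TPM and the low counts of Shank2 limit what could be detected.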
